A study of Homo sapiens with 12 samples.

Results

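Listed adenosines of tRNA-Asp-GTC-2-5 and tRNA-Asp-GTC-1-1 were followed through every library of an N1-methyladenosine (m1A) sequencing experiment on tRNA. These are 2 of the 3 cytosolic aspartate tRNA entries of the deposited site table, and all of their listed adenosines were taken, 5 of the 44 sites analysed in 29 tRNA entries. tRNA-Asp-GTC-2-5 had 4 of them, at positions 9, 14, 24 and 37 from the 5′ end (A9, A14, A24 and A37), and tRNA-Asp-GTC-1-1 had A24 alone. The entries had been chosen by their Input, IP and dma.IP mismatch rates, so levels are given as a description, and tests were limited to the comparison between the conditions. The cells were DLD1, a human colorectal cancer line, transduced with lentivirus. The labels give 2 replicates per condition without saying whether they were grown separately, and each replicate is called a culture here. CTRL cells carried the empty vector, and OE-WT cells, per the sample labels and the methods, stably overexpressed wild-type TRMT6 together with TRMT61A. The design text of the series instead lists a TRMT6 group and a TRMT61A group, and the sample labels were followed here. Each culture gave 3 libraries, namely small RNA before enrichment (Input), RNA enriched with an m1A antibody (IP) and IP material that the table marks as demethylase-treated (dma.IP), which makes 12 libraries with 2 replicates per condition and fraction. TRMT6 and TRMT61A levels were not analysed here. In Input the p-values measure the spread between these libraries, which may be technical, or counting error where that is larger. In IP and dma.IP they measure counting error.

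tRNA-Asp reads the aspartate codons. A methyl group on N1 of adenosine blocks Watson-Crick pairing, so reverse transcriptase either stops at the base or inserts a wrong one, and the share of reads with a mismatch at an adenosine (the mismatch rate) is used as a measure of m1A. Reads that end at a stop do not cover the base. TRMT6 and TRMT61A form the enzyme that methylates adenosine 58 in the T loop of cytosolic tRNAs, whereas m1A at position 9 of human tRNA-Asp-GTC is placed by another enzyme, TRMT10B. A9 lies in the short linker between the acceptor stem and the D arm, A14 is a conserved D-loop base that takes part in the tertiary core, A24 belongs to the D stem and A37 directly follows the anticodon. Adenosine 58 is base 57 in these tRNAs. It is present in both sequences, but its mismatch rate in tRNA-Asp-GTC-2-5 and 1-1 was not analysed here.

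The gene sequences of the 3 aspartate entries are shown because the entries are nearly identical, and because a listed adenosine of one can be another base in the next. All matched hg38, and capitals mark the listed adenosines.
tRNA-Asp-GTC-2-5: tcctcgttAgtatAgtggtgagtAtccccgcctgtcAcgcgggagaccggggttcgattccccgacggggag
tRNA-Asp-GTC-1-1: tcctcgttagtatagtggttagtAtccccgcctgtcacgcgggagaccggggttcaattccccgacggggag
tRNA-Asp-GTC-3-1: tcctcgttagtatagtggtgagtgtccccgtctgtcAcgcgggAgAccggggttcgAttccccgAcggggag
Each is 72 nt long. tRNA-Asp-GTC-2-5 lies at chr1:161470415-161470486 on the minus strand, tRNA-Asp-GTC-1-1 at chr12:98503503-98503574 on the plus strand and tRNA-Asp-GTC-3-1 at chr6:27583457-27583528 on the minus strand. In GENCODE the first also falls in an exon of the lncRNA gene ENSG00000283360 on the same strand, and the second lies within the lncRNA gene LINC02453 on the opposite strand, outside its exons. Only 4 of the 11 adenosines of tRNA-Asp-GTC-2-5 and 1 of the 12 of tRNA-Asp-GTC-1-1 were listed.

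Counting from 1 at the 5′ end, tRNA-Asp-GTC-1-1 differed from tRNA-Asp-GTC-2-5 by G20T and G56A, and tRNA-Asp-GTC-3-1 differed from it by A24G and C31T (97.2% identity each). The first 19 bases, with A9 and A14, were therefore the same in all 3 entries. RefSeq had 11 tRNA genes identical to tRNA-Asp-GTC-2-5, 5 of them on chromosome 1, and a single gene each for tRNA-Asp-GTC-1-1 and 3-1. Reads at the tRNA-Asp-GTC-2-5 entry can come from any of these 11 genes, and how a read that fits several entries was assigned is not stated in the sources used here. A24, which pairs with T at position 11 of the D stem, is a G in tRNA-Asp-GTC-3-1, so that a read of that tRNA counted at tRNA-Asp-GTC-2-5 or 1-1 would show a mismatch there. The table does not give the mismatched base, and the part of such reads was not tested.

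Over all listed sites the Input libraries held 33288 to 72519 reads, the IP libraries 59 to 220 and the dma.IP libraries 62 to 203, where a read that covers several sites counts at each. The aspartate sites described here held 13901 to 34350 of the Input reads per library, 7 to 13 of the IP reads and 12 to 39 of the dma.IP reads. Counting error was therefore small in Input at tRNA-Asp-GTC-2-5 and very large after enrichment, and the spread between libraries comes on top of it. At A24 of tRNA-Asp-GTC-1-1, with 164 to 308 reads per Input library, counting error was larger in Input too. Each of the 44 sites showed at least 1 mismatched read after IP. Over all libraries, 35 of the 44 sites had exactly 1 mismatched IP read, as did 4 of the 5 aspartate sites described here. Exact (Clopper-Pearson) 95% intervals are given for rates and shares, and for a count of 0 the rate or share that 3 reads would make is given as a limit, beside the exact upper bound. They account for counting error alone. They do not account for a listing of sites by their IP mismatches, which would raise the IP rates and was not tested. The methods name no molecular identifiers, so amplified reads need not stem from separate molecules.

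A9 of tRNA-Asp-GTC-2-5 was mismatched in about as many Input reads as it was read correctly, with 49.6 to 54.8% mismatched in the 4 libraries. In CTRL the mismatch rate was 49.6% in replicate 1 (650 of 1311 reads, interval 46.8 to 52.3%) and 54.8% in replicate 2 (1251 of 2283 reads, 52.7 to 56.9%). In OE-WT it was 54.0% in replicate 1 (1853 of 3431 reads, 52.3 to 55.7%) and 53.3% in replicate 2 (1121 of 2102 reads, 51.2 to 55.5%). CTRL replicate 1 was the lowest of the 4 and CTRL replicate 2 the highest, so the conditions overlapped. The intervals of these 2 replicates were apart. Over the 4 Input libraries the mean was 52.9% ± 2.31 (SD, n = 4), the highest of the 24 sites that reached 20 reads per Input library. The next site was A56 of tRNA-Gly-GCC-2-1 at 23.1%.

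A14 of tRNA-Asp-GTC-2-5 came second along this tRNA, at the fourth place of the 24 sites. Its Input mismatch rate was 13.8% (326 of 2368 reads) and 15.9% (699 of 4404) in the CTRL replicates and 16.1% (981 of 6092) and 17.3% (690 of 3992) in the OE-WT replicates. The intervals of these libraries spanned 12.4 to 18.5%, and both OE-WT libraries lay above both CTRL libraries by a margin smaller than the distance between replicates. A14 was 3.09 to 3.6 times less often mismatched than A9 within a library.

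A37 of tRNA-Asp-GTC-2-5, the deepest site, had an Input mismatch rate of 6.38% (431 of 6757 reads) and 6.85% (950 of 13877) for the CTRL replicates and of 5.98% (952 of 15919) and 6.51% (810 of 12451) for the OE-WT replicates. The libraries lay within 0.866 percentage points of each other and the conditions overlapped. A24 was the lowest, at 2.88% (95 of 3301 reads) and 3.18% (198 of 6230) for the CTRL replicates and 3.44% (296 of 8600) and 2.54% (144 of 5659) for the OE-WT replicates. Here OE-WT replicate 1 was the highest and OE-WT replicate 2 the lowest of the 4.

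The order A9, A14, A37, A24 was the same in each of the 4 Input libraries, and no library of one position overlapped those of the next. Means over the 4 libraries were 52.9% ± 2.31 at A9, 15.8% ± 1.46 at A14, 6.43% ± 0.358 at A37 and 3.01% ± 0.387 at A24 (SD, n = 4). A9 thus carried 42.6% of the mismatched Input reads listed for tRNA-Asp-GTC-2-5 (4875 of 11447) with 9.24% of its reads (9127 of 98777). A37 carried 27.5% of the mismatched reads with 49.6% of the reads, A14 23.6% with 17.1% and A24 6.40% with 24.1%. These shares depend on which adenosines are listed and on the fall in depth along the tRNA.

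**Figure D1:**
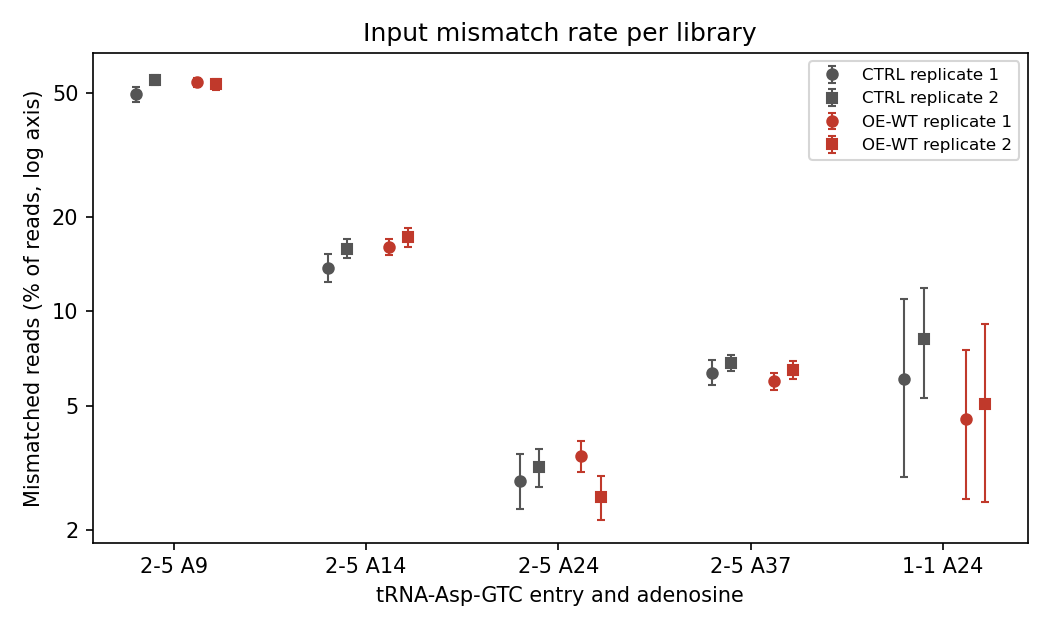
Input mismatch rate (percent of reads, log axis) at the 4 listed adenosines of tRNA-Asp-GTC-2-5 and at A24 of tRNA-Asp-GTC-1-1. Each symbol is a library with its exact 95% interval, gray for CTRL and red for OE-WT. A9 lies between 49.6 and 54.8% and A24 of tRNA-Asp-GTC-2-5 between 2.54 and 3.44% in all 4 libraries.

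A24 of tRNA-Asp-GTC-1-1 rested on far fewer reads. Its Input mismatch rate was 6.10% in CTRL replicate 1 (10 of 164 reads, interval 2.96 to 10.9%) and 8.16% in CTRL replicate 2 (24 of 294 reads, 5.30 to 11.9%). It was 4.55% in OE-WT replicate 1 (14 of 308 reads, 2.51 to 7.51%) and 5.08% in OE-WT replicate 2 (10 of 197 reads, 2.46 to 9.14%). Both OE-WT libraries were below both CTRL libraries, with intervals that overlapped throughout. Its mean of 5.97% ± 1.60 (SD, n = 4) did not differ beyond the spread from A37 of tRNA-Asp-GTC-2-5.

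The same base in tRNA-Asp-GTC-2-5 was mismatched less often in 4 of 4 Input libraries, although the entries are identical from base 21 to base 55. Within a library the rate at A24 of tRNA-Asp-GTC-1-1 was 1.32 to 2.57 times that at A24 of tRNA-Asp-GTC-2-5, while tRNA-Asp-GTC-2-5 had 20.1 to 28.7 times as many reads there. The intervals of the entries were apart only in CTRL replicate 2, at 2.76 to 3.64% in tRNA-Asp-GTC-2-5 against 5.30 to 11.9% in tRNA-Asp-GTC-1-1.

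A37 could be set against its counterpart in tRNA-Asp-GTC-3-1, where the entries are identical from base 32 to the 3′ end. The Input mismatch rate of A37 in tRNA-Asp-GTC-3-1 was 13.4% (397 of 2966 reads) and 13.9% (922 of 6654) for the CTRL replicates and 13.4% (808 of 6036) and 12.7% (726 of 5739) for the OE-WT replicates. It was higher than in tRNA-Asp-GTC-2-5 in 4 of 4 libraries, by 1.94 to 2.24 times, and the intervals of the entries did not overlap in any library. The intervals ran from 11.8 to 14.7% in tRNA-Asp-GTC-3-1 and from 5.62 to 7.28% in tRNA-Asp-GTC-2-5. tRNA-Asp-GTC-2-5 had 2.09 to 2.64 times as many reads at A37. The part of read assignment between the entries in these differences was not tested.

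None of the 19 other sites that reached 20 reads per Input library had an Input rate near that of A9. Likeness was measured as the mean absolute difference in Input mismatch rate over the 4 libraries. The nearest sites to A9, A56 of tRNA-Gly-GCC-2-1 and A37 of tRNA-Glu-TTC-2-1, differed from it by 29.8 and 36.8 percentage points. The nearest to A14 were A37 of tRNA-Asp-GTC-3-1 and A57 of the initiator tRNA-iMet-CAT-1-1, which differed by 2.44 and 2.70 points. A24 of tRNA-Asp-GTC-2-5 was closest to A57 and A46 of tRNA-Asp-GTC-3-1, with differences of 0.377 and 0.699 points. A37 of tRNA-Asp-GTC-2-5 was closest to A57 of tRNA-Glu-TTC-4-1 (1.39 points) and A57 of tRNA-Ala-AGC-2-2 (3.04 points). These were also the nearest to A24 of tRNA-Asp-GTC-1-1, at 2.23 and 2.63 points.

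Depth fell from A37 towards the 5′ end of tRNA-Asp-GTC-2-5 in every Input library. For every 100 reads at A37 there were 48.9 at A24, 35.0 at A14 and 19.4 at A9 in CTRL replicate 1, and 44.9, 31.7 and 16.5 in CTRL replicate 2. OE-WT replicate 1 had 54.0, 38.3 and 21.6 reads at these positions and OE-WT replicate 2 had 45.5, 32.1 and 16.9. At each position OE-WT replicate 1 was the highest, and the conditions overlapped. At A9 CTRL averaged 17.9 ± 2.09 and OE-WT 19.2 ± 3.30 (SD, n = 2), so the difference of 1.29 reads per 100 was smaller than the spread. IP and dma.IP had the same order of positions with few reads. Summed over the 4 libraries, A37, A24, A14 and A9 had 24, 8, 4 and 1 reads in IP and 57, 21, 12 and 5 in dma.IP. The values at A9 came to 4.17 reads per 100 at A37 in IP and 8.77 in dma.IP.

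**Figure D2:**
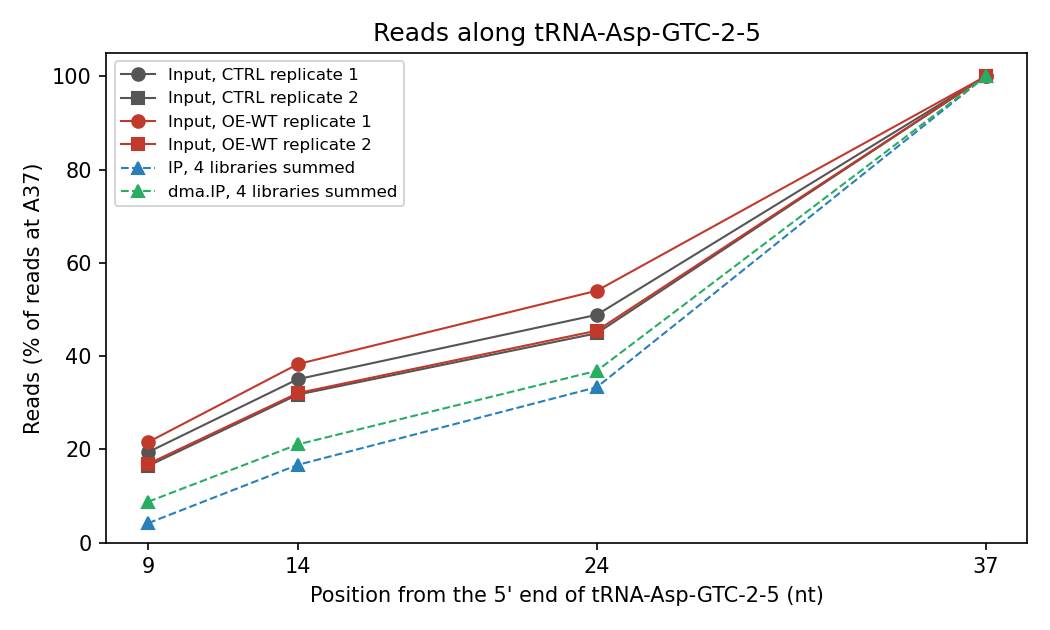
Reads covering each listed adenosine of tRNA-Asp-GTC-2-5 as a percentage of the reads at A37, by position in nt from the 5′ end. Solid lines are the 4 Input libraries, and dashed lines are the 4 IP or 4 dma.IP libraries summed. Every line falls from A37 to A9, where the Input libraries lie between 16.5 and 21.6%.

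The comparison of OE-WT with CTRL asked whether overexpression of TRMT6 and TRMT61A changed the mismatch rate at these adenosines. No aspartate site described here passed the quasi-binomial test in Input, and of all 23 sites tested 0% did (0 sites, and 0 at an unadjusted p under 0.05). With 2 libraries per condition and an adjustment over 23 sites, modest changes could go uncalled. The lack of calls therefore does not show that the rates were equal. A9 averaged 52.2% ± 3.69 mismatched reads for CTRL and 53.7% ± 0.479 for OE-WT (SD, n = 2), an odds ratio of 1.03 with a 95% interval of 0.694 to 1.54 (quasi-binomial adjusted p = 0.954 over all sites tested). The interval allows a fall as well as a rise in the odds.

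A14 averaged 14.8% ± 1.49 for CTRL and 16.7% ± 0.835 for OE-WT, with an odds ratio of 1.11 (interval 0.772 to 1.61). A24 was at 3.03% ± 0.212 and 2.99% ± 0.634, with an odds ratio of 1.00 (0.483 to 2.09). A37 was at 6.61% ± 0.330 and 6.24% ± 0.371, with an odds ratio of 0.923 (0.719 to 1.19). A24 of tRNA-Asp-GTC-1-1 was at 7.13% ± 1.46 and 4.81% ± 0.375, with an odds ratio of 0.622 (0.191 to 2.03). The widest interval was thus that of the site with the fewest reads. Adjusted p-values of the quasi-binomial model were 0.829 for A14, A37 and A24 of tRNA-Asp-GTC-1-1, and 0.984 for A24 of tRNA-Asp-GTC-2-5.

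The libraries of the conditions did not overlap at 2 of the 5 sites, A14 (higher in OE-WT) and A24 of tRNA-Asp-GTC-1-1 (lower). Among all 23 sites tested 34.8% did not overlap, 21.7% with OE-WT higher and 13% with OE-WT lower, so the aspartate sites stood near the background.

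**Figure D3:**
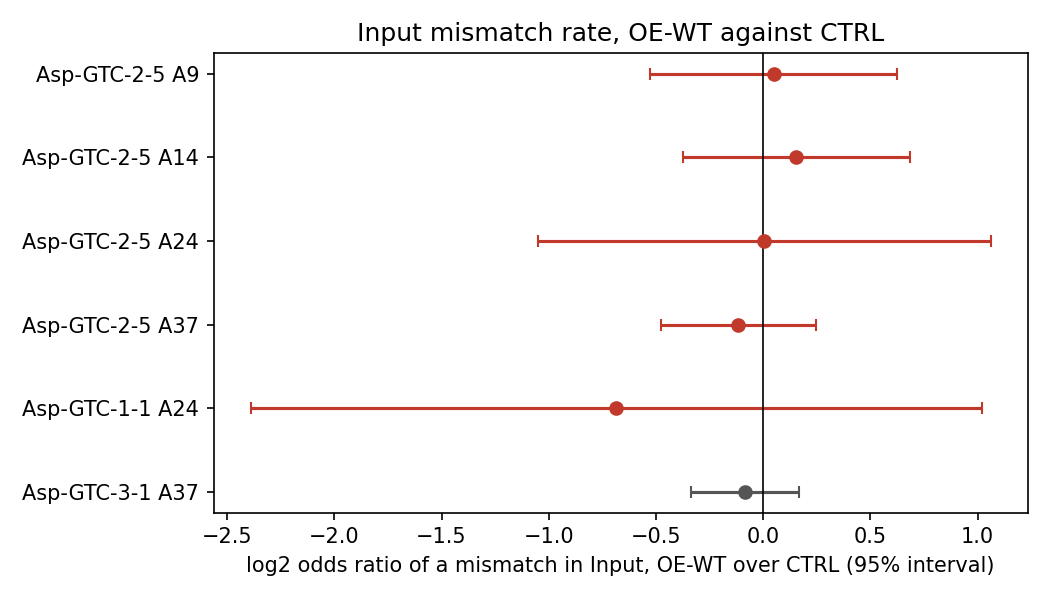
Log2 odds ratio of a mismatched read in Input, OE-WT over CTRL, with 95% intervals of the quasi-binomial model (2 libraries per condition). Red marks the aspartate sites described here and gray A37 of tRNA-Asp-GTC-3-1. All 6 intervals include 0.

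Depth at these sites was also compared between the conditions, to ask whether the tRNAs were read more or less often after overexpression. A37 of tRNA-Asp-GTC-2-5 took 20.3 and 20.5% of the listed Input reads for the CTRL replicates and 22.0 and 20.5% for the OE-WT replicates, and A9 took 3.94 and 3.37% against 4.73 and 3.46%. The edgeR quasi-likelihood test, in which counts are relative to the other listed sites, called 0% of 24 sites, with none reaching 0.05 before adjustment. The fitted fold of OE-WT over CTRL was 1.17 at A9 (95% interval 0.944 to 1.46), 1.15 at A14 (0.899 to 1.47), 1.16 at A24 (0.882 to 1.52) and 1.08 at A37 (0.769 to 1.53). At A24 of tRNA-Asp-GTC-1-1 it was 0.845 (0.560 to 1.28). The adjusted p was 0.995 at each of the 5 sites. Sites of tRNA-Asp-GTC-2-5 share reads, so their folds are not separate measurements. The spread behind these intervals was pooled over the tested sites, including those that share reads, so the intervals may be too narrow.

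The antibody fraction held few aspartate reads. tRNA-Asp-GTC-2-5 made up 42.2% of the listed Input reads (98777 of 234265), 6.75% of the listed IP reads (37 of 548, interval 4.80 to 9.19%) and 18.1% of the dma.IP reads (95 of 524, 14.9 to 21.7%). Its share was below that in Input in 4 of 4 cultures in IP and in 4 of 4 in dma.IP. For every 1000 Input reads there were 0.375 IP reads and 0.962 dma.IP reads at tRNA-Asp-GTC-2-5, 0.633 and 1.62 at tRNA-Asp-GTC-3-1, and 33.8 and 18.1 at the 34 sites outside tRNA-Asp. Along tRNA-Asp-GTC-2-5 the IP value was lowest at A9, with 0.110 reads per 1000, and highest at A37, with 0.490. The value at A9 rested on 1 IP read and that at A37 on 24, so counting error in this order is large. A24 of tRNA-Asp-GTC-1-1 had 963 Input reads, 2 IP reads and no dma.IP read (0 of 524 listed reads, which allows a share of up to 0.573% by the limit of 3 reads and 0.702% by the exact bound). Libraries differ in total depth, so these ratios cannot be read as yields. The 34 sites outside tRNA-Asp held 12796 Input reads together, and each of the 44 sites had a mismatched IP read. A listing of sites by their IP reads would raise the ratio at sites with few Input reads. Its part in the differences between sites was not tested.

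By library, tRNA-Asp-GTC-2-5 took 6.72 and 4.55% of the listed IP reads for the CTRL replicates and 20.3 and 4.67% for the OE-WT replicates. OE-WT replicate 1, the highest, was also the shallowest IP library, with 12 of 59 reads. In dma.IP its share was 35.5% (22 of 62 reads, interval 23.7 to 48.7%) and 28.7% (39 of 136, 21.3 to 37.1%) in CTRL, against 10.8% (22 of 203, 6.92 to 15.9%) and 9.76% (12 of 123, 5.14 to 16.4%) in OE-WT. The dma.IP libraries of the conditions did not overlap, with OE-WT the lower. Of the 6 entries with a read in every dma.IP library, 33.3% were apart in that direction and 50% in either, and the smallest two-sided p that an exact permutation of 2 against 2 libraries allows is 0.333. The Input share of tRNA-Asp-GTC-2-5 was 41.3 and 39.6% for the CTRL replicates and 46.9 and 39.8% for the OE-WT replicates, which overlapped. That of tRNA-Asp-GTC-1-1 was 0.493 and 0.434% against 0.425 and 0.324%, and the conditions did not overlap. Of the 26 entries read in every Input library, 30.8% were apart with OE-WT lower, 3.85% with OE-WT higher and 34.6% in either direction.

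**Figure D4:**
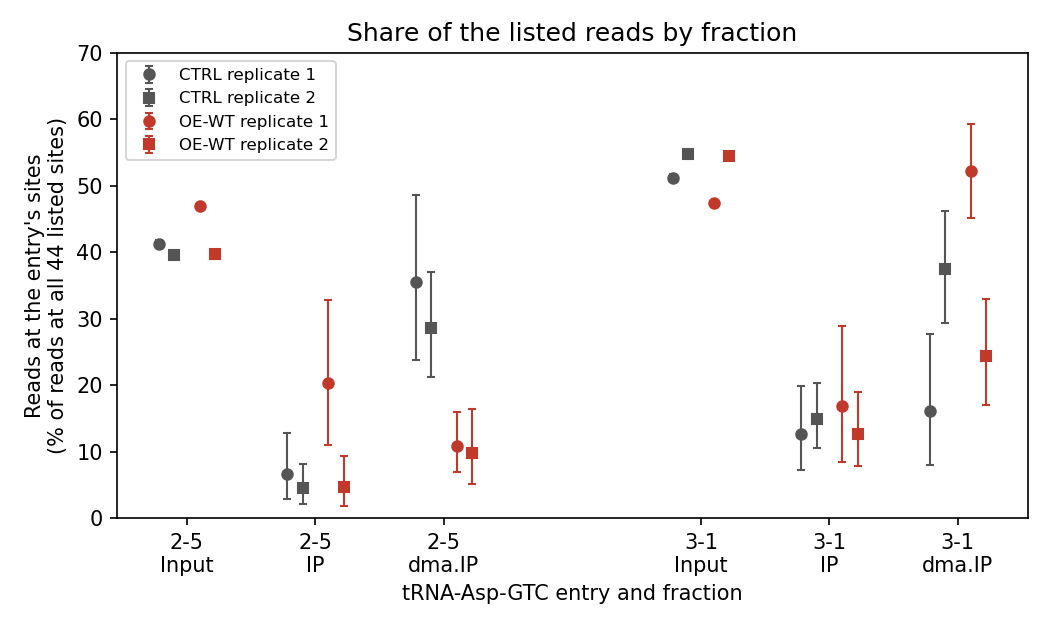
Share of the reads at all 44 listed sites that fell on tRNA-Asp-GTC-2-5 (4 sites) or tRNA-Asp-GTC-3-1 (5 sites), by fraction. Each symbol is a library with its exact 95% interval, gray for CTRL and red for OE-WT. For tRNA-Asp-GTC-2-5 the Input libraries lie at 39.6 to 46.9%, the IP libraries at 4.55 to 20.3% and the dma.IP libraries at 9.76 to 35.5%.

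Mismatch rates after enrichment rested on single reads. At A9 the only IP read of the 4 libraries, in CTRL replicate 2, was mismatched (1 of 1). In dma.IP, A9 had 0 mismatches in 3 reads in CTRL replicate 1 and 2 in 2 reads in CTRL replicate 2, and neither OE-WT library had a read. So A9 could not be compared between OE-WT and CTRL in either fraction. Its dma.IP rate in CTRL, 40.0% of 5 reads, had an interval of 5.27 to 85.3%, which holds the Input rate.

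At A14 the mismatched IP reads were 1 of 1 and 1 of 2 in the CTRL replicates and 0 of 1 in OE-WT replicate 1, with no read in OE-WT replicate 2. In dma.IP they were 0 of 4 and 3 of 7 for CTRL, no read in OE-WT replicate 1 and 1 of 1 in OE-WT replicate 2. The summed rate was 50% in IP (2 of 4 reads, interval 6.76 to 93.2%) and 33.3% in dma.IP (4 of 12 reads, 9.92 to 65.1%), which were not distinguishable at this depth.

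A24 of tRNA-Asp-GTC-2-5 had 1 mismatched IP read, in CTRL replicate 2 (1 of 3), beside 0 of 2 in CTRL replicate 1, 0 of 3 in OE-WT replicate 1 and no read in OE-WT replicate 2. It was the only position of this tRNA with no mismatch in dma.IP, at 0 of 5 and 0 of 10 reads for CTRL and 0 of 3 and 0 of 3 for OE-WT. The 0 of 21 reads allow a rate of up to 14.3% by the limit of 3 reads and 16.1% by the exact bound, above the 3.08% seen over the Input libraries, so a difference from Input was not detectable. The IP rate of 12.5% (1 of 8 reads) had an interval of 0.316 to 52.7%.

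A37 of tRNA-Asp-GTC-2-5 was the best covered of the 5 sites after enrichment. Its mismatched IP reads were 0 of 5 and 0 of 4 for CTRL and 1 of 8 and 0 of 7 for OE-WT, and its mismatched dma.IP reads were 0 of 10 and 4 of 20 for CTRL and 2 of 19 and 2 of 8 for OE-WT. The summed rate was 4.17% in IP (1 of 24 reads, interval 0.105 to 21.1%), 14.04% in dma.IP (8 of 57 reads, 6.26 to 25.8%) and 6.41% in Input (3143 of 49004 reads, 6.20 to 6.63%). The dma.IP rate was above the IP rate in CTRL replicate 2 by 20 percentage points and in OE-WT replicate 2 by 25, was equal to it in CTRL replicate 1 and was 1.97 points below it in OE-WT replicate 1. The intervals of IP and dma.IP overlapped. A24 of tRNA-Asp-GTC-1-1 had 1 of 1 mismatched IP reads in CTRL replicate 1 and 0 of 1 in OE-WT replicate 1.

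**Figure D5:**
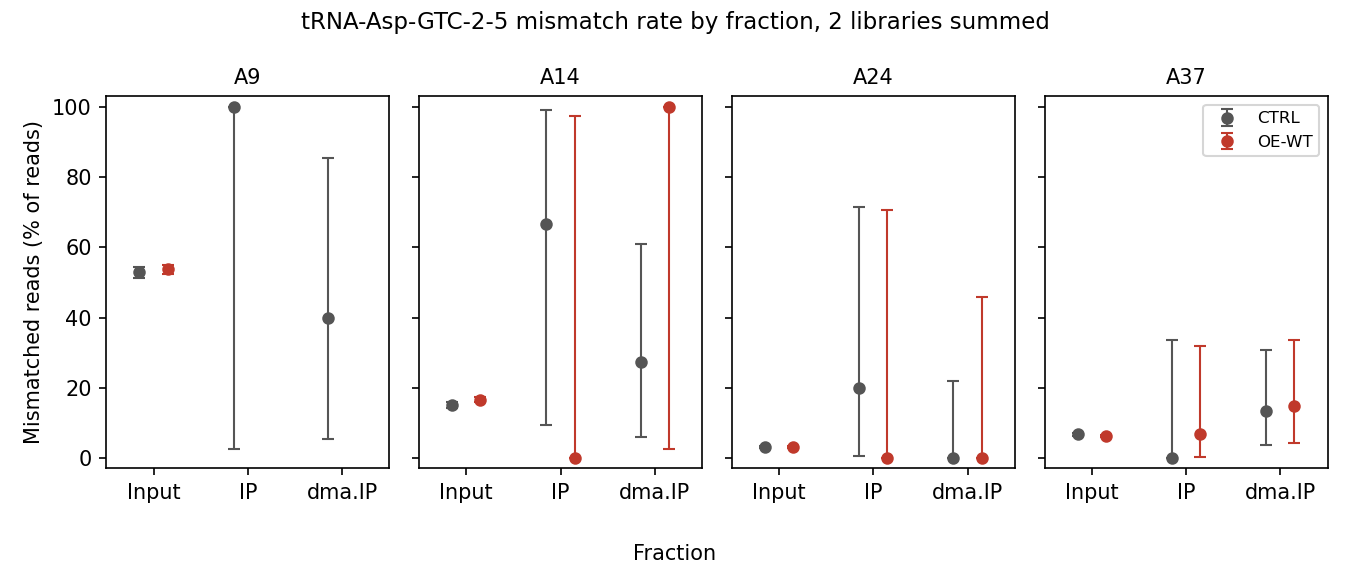
Mismatch rate (percent of reads) at A9, A14, A24 and A37 of tRNA-Asp-GTC-2-5 in Input, IP and dma.IP, with the 2 libraries of a condition summed and exact 95% intervals. Gray is CTRL and red OE-WT, and a missing point means no read. The Input points have narrow intervals, whereas at A37 those of dma.IP run from 3.76 to 30.7% in CTRL and from 4.19 to 33.7% in OE-WT, and those at A9 and A14 are wider.

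Over all listed adenosines of tRNA-Asp-GTC-2-5, the mismatched IP reads numbered 4 of 18 for CTRL and 1 of 19 for OE-WT, and the mismatched dma.IP reads 9 of 61 and 5 of 34. Fisher's exact test on summed reads, which measures counting error and not the spread between libraries, was run per site between OE-WT and CTRL. It called 0% of 31 sites in IP and 0% of 23 sites in dma.IP, with 0 sites at an unadjusted p under 0.05 in each. Such counts left little room for a call, as 35 of the 44 listed sites had exactly 1 mismatched IP read. The share of 0% therefore says little about a difference between the conditions. In IP the exact two-sided p was 1 at A14, A24 and A37 of tRNA-Asp-GTC-2-5 and at A24 of tRNA-Asp-GTC-1-1. In dma.IP it was 0.333 at A14 (3 of 11 reads in CTRL against 1 of 1 in OE-WT) and 1 at A24 and A37. At A37 the dma.IP rate of CTRL was 13.3% (4 of 30 reads, interval 3.76 to 30.7%) and that of OE-WT 14.8% (4 of 27 reads, 4.19 to 33.7%). With so few reads, a change in mismatch rate at these positions after enrichment was not detectable.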

How the data were processed

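tRNA m1A sequencing of DLD1 cells covered 12 libraries, grouped by their labels. Per the methods, small RNA was de-aminoacylated and sequenced, reads were trimmed with Cutadapt 1.9.3 (15 nt or longer kept) and mapped by Bowtie2 against tRNA references in which isoforms of identical score were consolidated, and reads were counted with SAMtools. How mismatches were called, sites chosen and multiply mapping reads assigned, and the step of the demethylase, are not given in the sources used here. The authors deposited, per site and library, the count of reads and the count of mismatched reads, not normalized. The deposited mismatch rate is a fraction, which equalled the quotient of the counts in all 528 values (within 1e-09) and is written as 0 where there were no reads. The authors also deposited, per culture, IP minus dma.IP rates as a fraction (0 where negative) and their ratio (1000 where only the dma.IP rate was 0), which were not used.

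Rates were recomputed from counts, without a value where there were no reads. The limma alternative for IP and dma.IP rates instead used the deposited rates, so a library without reads entered it as 0. For Input rates the test was a quasi-binomial logistic model (two-sided F test, dispersion of at least 1) at sites with 20 or more reads in every Input library and a mismatch, for Input depth edgeR 4.0.16 (quasi-likelihood, TMM over the listed sites) at sites with 20 or more reads, and for IP and dma.IP rates Fisher's exact tests. p-values were Benjamini-Hochberg adjusted over the sites tested, with a threshold of 0.05. Tests were tested on simulated data. Replicates were not copies of each other (chi-square of Input reads over sites: CTRL 432, df 42, and OE-WT 940, df 43). Sequences were matched to hg38. Other sites were named as the 2 most like each aspartate site in Input, and at positions shared with tRNA-Asp-GTC-3-1. The aspartate entries, lists and tests were chosen with earlier results of these data known. Statements cover the 44 sites analysed. Alternatives were other read minimums, tests (limma 3.58.1, DESeq2 1.42.0), normalizations, a replicate block and leaving out libraries. R 4.3.3, Python 3.11.15, SciPy 1.17.1 and matplotlib 3.10.9 were used.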

Additional observations from a re-analysis of the deposited data

How the results depend on the processing

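The number of sites past the threshold stayed at 0 in each comparison under all alternatives except for the Input mismatch rate, where Fisher's exact test of the summed reads gave 1 site and dispersions shared over sites called 1 site, neither of them an aspartate site. Without a single library the log2 odds ratio of the Input rate ranged from -0.061 to 0.24 at A9 of tRNA-Asp-GTC-2-5 (below 0 without CTRL replicate 1) and from -0.28 to 0.17 at A24 (below 0 without CTRL replicate 1, at -0.04, and without OE-WT replicate 1). At A24 it was 0.01 in the fit reported, -0.021 with limma at an offset of 0.01 and -0.0088 at an offset of 0.05. The log2 fold of Input depth at A9 ranged from -0.012 (without OE-WT replicate 1) to 0.43 (without OE-WT replicate 2, edgeR adjusted p = 0.0737). The dma.IP difference at A37 ranged from -5.19 points (without CTRL replicate 1) to 14.8 points, and was -2.81 without OE-WT replicate 2. The cause of these shifts was not tested. A9 reads per 100 at A37 differed by -1.04 to 3.63 between the conditions when a library was left out, an alternative added after the data were examined. With the replicate number as a block, 0 sites were called in Input rate and 0 in Input depth, and the log2 odds ratio at A24 of tRNA-Asp-GTC-2-5 became -0.048. Deviations of same-numbered libraries correlated at 0.354 (rate) and 0.190 (depth) over 23 sites, but the labels tie the numbers to no shared batch. Few IP and dma.IP reads limit every rate there.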
